A study of Mus musculus with 9 samples.

Results

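The neutrophil granule and maturation genes are 36 listed symbols in 4 lists, called stages here. They are 8 genes of the primary granule and the promyelocyte, 9 of the secondary granule, 15 of the mature neutrophil and 4 of the NADPH oxidase. The NADPH oxidase is an enzyme complex and not a step of maturation. They were listed by name, and the rule uses no difference between groups. The list was chosen with earlier results of these data known, so counts of its genes describe it and are not independent support. A row was found for 35 of the 36 in the normalized table, which holds 24367 rows with 22354 gene symbols. For a symbol with more than 1 row, the brightest on average was taken.

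Neutrophils are made in bone marrow, and each granule is filled while the cell passes through a given stage. Promyelocytes make the proteases and peroxidase of the primary (azurophil) granule, myelocytes and metamyelocytes make the iron-binding and antimicrobial proteins of the secondary (specific) granule, and nearly mature cells gain the chemotactic receptors and the calcium-binding S100 proteins. The mRNAs of the granule proteins are mostly lost once the granule is filled, so a mature neutrophil carries granule proteins with little of their early mRNA. After a fracture, neutrophils are among the first cells to enter the hematoma.

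The study assessed whether the time of day at which an NSAID is given alters gene expression at the fracture site. Total RNA came from the central part of the right tibia of female mice, labelled as 2 months old, with 3 arrays in each of 3 groups. Whole-transcript GeneChip Mouse Gene ST arrays were used, which carry many probes along each gene. The Control group had neither surgery nor NSAID, and its tissue is labelled as tibia bone with no fracture. The Active group had a tibia fracture and carprofen, an NSAID that inhibits the COX enzymes, at 20 mg/kg for 3 days at ZT13, in the mouse's active time. The Resting group had the same surgery, drug and dose at ZT2, in the resting time. ZT is the time in hours after lights on. All tissue was taken at ZT6, for the operated mice 78 hours after surgery. By then over 18 hours had passed since the last dose in Active and over 30 hours in Resting, so the time since the last dose differed along with the time of dosing. No fractured group without NSAID was on the arrays, so fracture and drug cannot be told apart in a comparison with Control. The methods assign 9 mice to 3 groups, while the text speaks of RNA pools, so p-values reflect only how much these RNA samples vary.

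Values are the authors' normalized signals on a log2 scale, which was inferred from their range. Differences are log2 differences between group means from limma in 1 fit of the 9 arrays, and adjusted p-values are Benjamini-Hochberg over all 24367 rows. With 3 arrays against 3, the smallest p of a two-sided exact permutation test is 0.10. Correlations between arrays were 0.980 to 0.991 within groups and 0.929 to 0.989 between groups. All 10 skeletal muscle markers and 8 of 9 bone markers lay above the median of all rows, and Bglap (osteocalcin) lay below it, at a mean of 5.93 in Control. All neutrophil genes with a row except Stfa3 had a mean above that median. In simulated data with the spread of these arrays, 83% of 2-fold and 33% of 1.5-fold changes between Active and Resting were recovered. The changed rows were drawn at random from all rows and varied independently. These shares therefore describe a typical row and not the neutrophil genes, whose median SD in Active was 0.31, beside 0.16 over all rows.

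**Figure D1:**
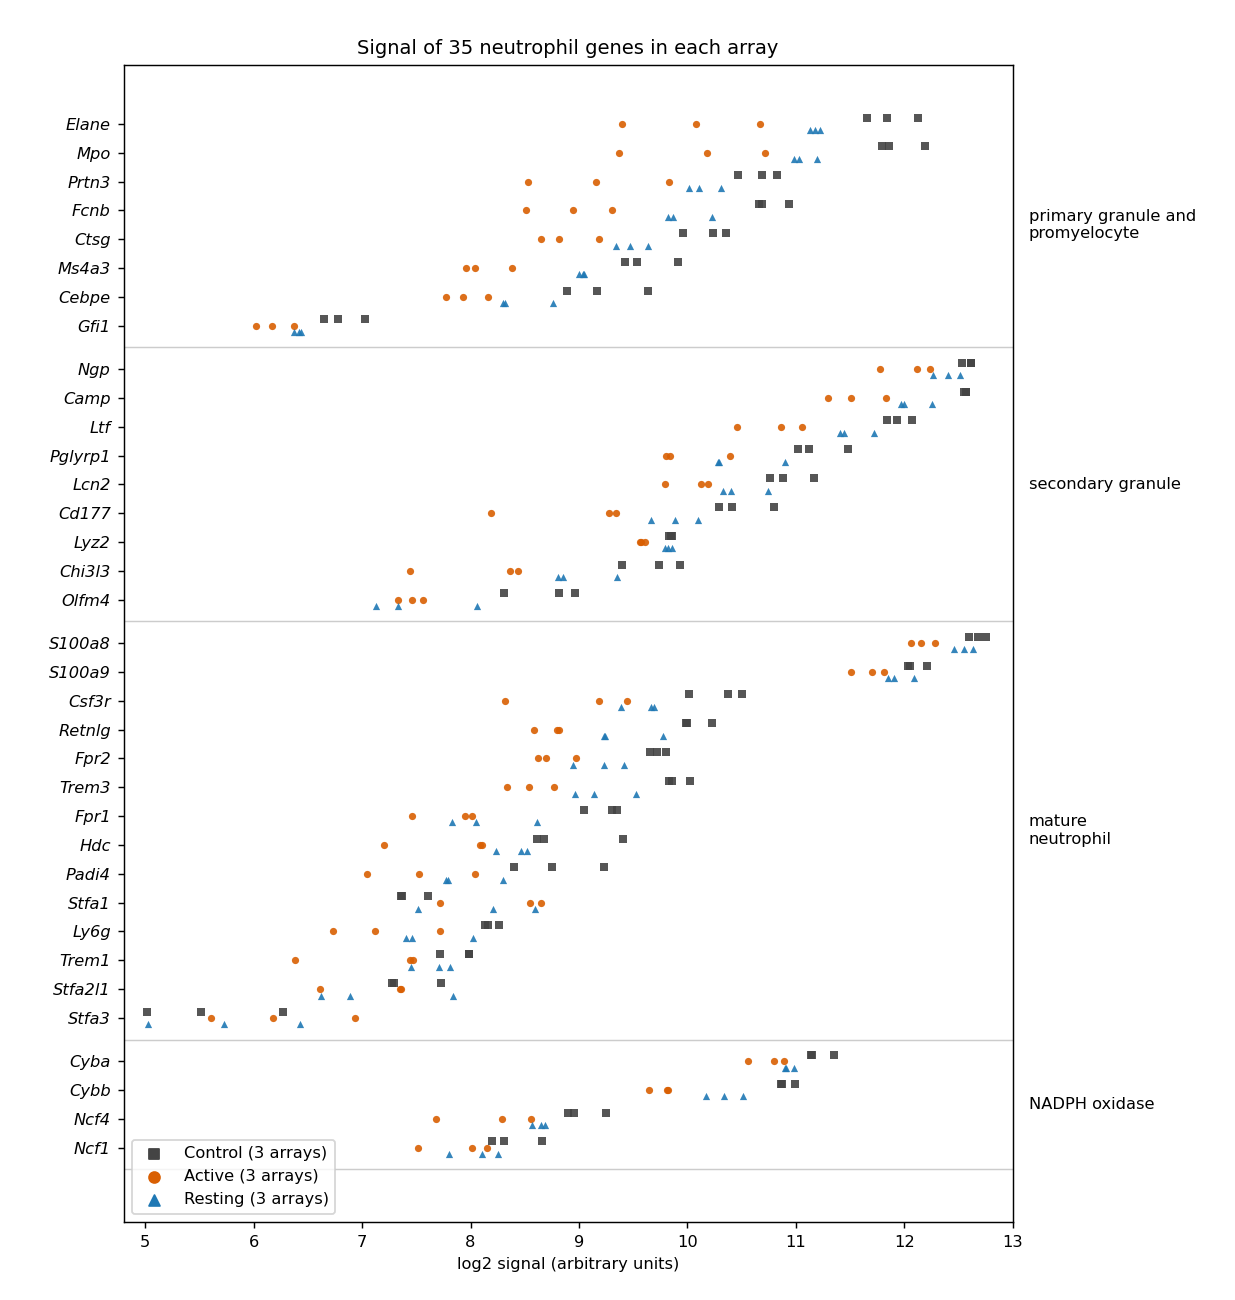
Log2 signal in arbitrary units (horizontal axis) of each of the 35 neutrophil genes with a row (vertical axis, by stage), with 1 point for each array of Control (squares), Active (circles) and Resting (triangles). For Mpo, Control lay between 11.79 and 12.19, Resting between 10.98 and 11.19 and Active between 9.37 and 10.71, while the stefin genes Stfa1 and Stfa3 had their highest array in Active.

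In the fractured tibia with carprofen at the active time, 31 of the 35 neutrophil genes were lower than in the unfractured tibia and 0 were higher. Over all rows, 12.1% were lower and 11.8% higher. The median log2 difference of the 35 genes was -1.15, and that of all rows was 0.02. With carprofen at the resting time, 14 of 35 were lower than in Control and 0 were higher, beside 10% and 9.08% of all rows. Their median was -0.53, and that of all rows was 0.02. Every Active array lay below every Control array for 32 genes, beside 17.6% of all rows, and every Resting array did so for 27, beside 17.8%. These comparisons share the 3 Control arrays. In bulk tissue, fewer cells of a type and less RNA per cell cannot be told apart.

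The means of 33 of the 35 genes stood in the order Control, Resting, Active from high to low, an order found in 23% of all rows. The remaining genes, Stfa1 and Stfa3, had the opposite order. Between the treated groups, 0 of 35 genes passed an adjusted p of 0.05 with limma, as did 0% of all rows, and the methods' t-test also called 0. At an unadjusted p under 0.05, 25 of the 35 genes passed, beside 6.11% of all rows, and all 25 were lower in Active, beside 3.01%. With a 1.5-fold difference in addition, which is the threshold of the methods, 13 genes were lower, beside 0.607% of all rows, and 0 were higher, beside 0.365%. Every Active array lay below every Resting array for 23 genes, beside 4.77% of all rows, and the mean was lower in Active for 33, beside 51.5%.

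**Figure D2:**
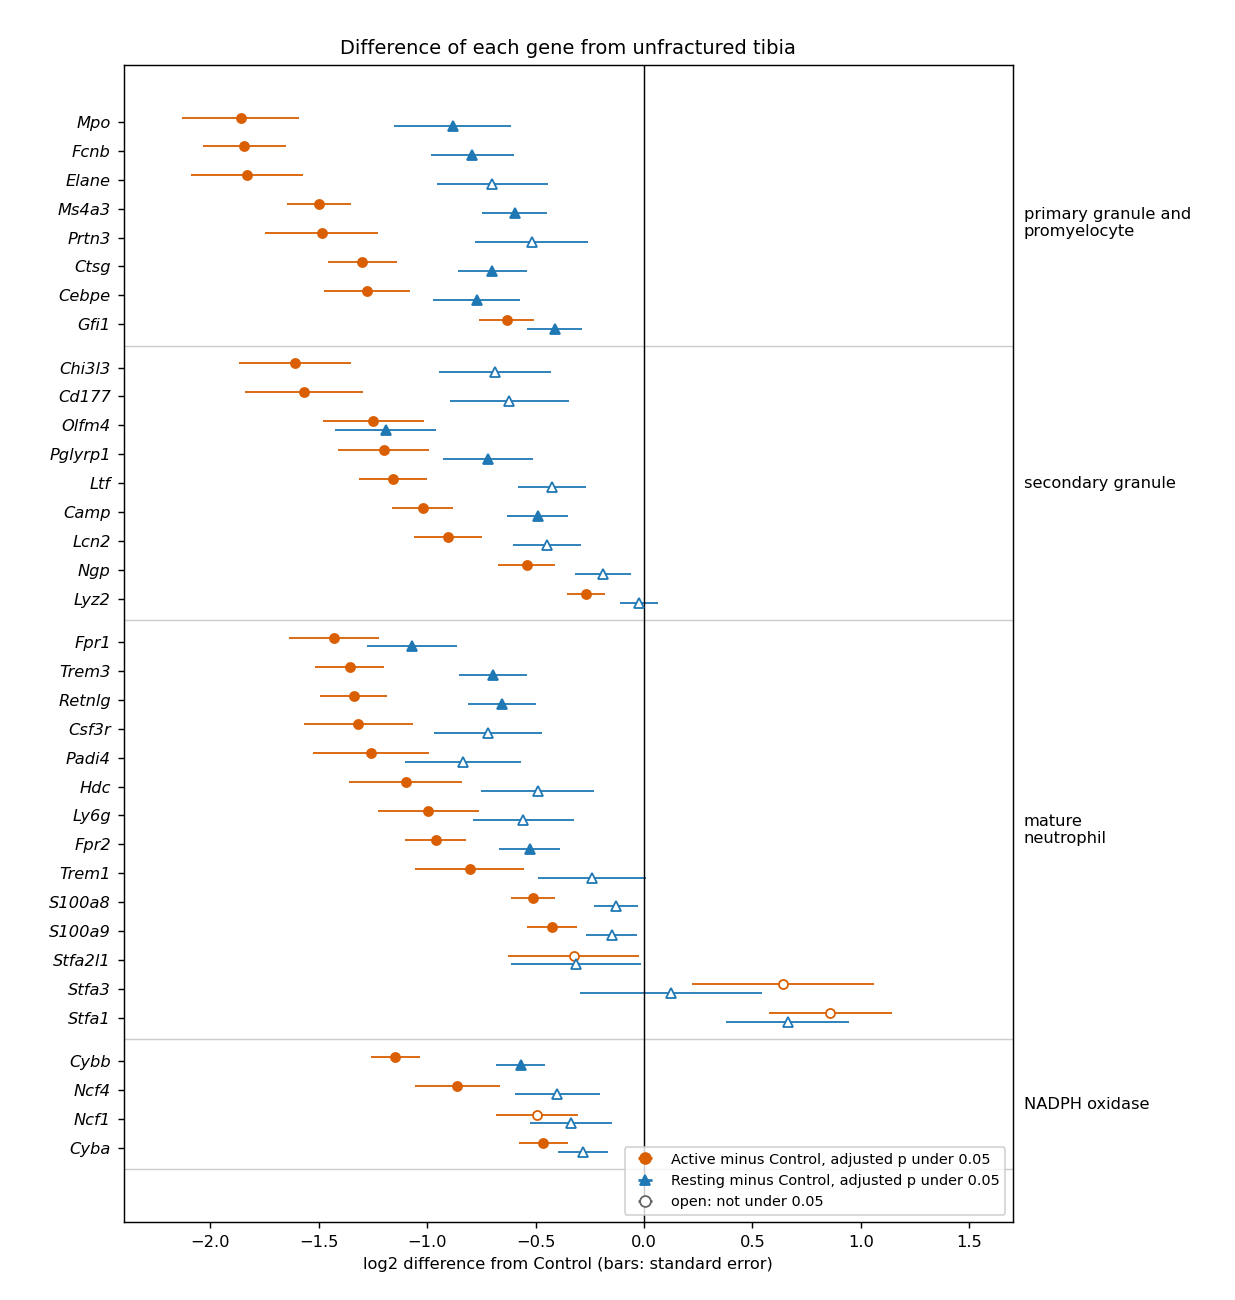
Log2 difference from Control (horizontal axis) of the 35 genes by stage, with the standard error as bars, for Active (circles) and Resting (triangles); filled symbols have an adjusted p under 0.05. Active was filled for 31 genes and Resting for 14, and Stfa1 and Stfa3 stood to the right of 0 in both.

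The primary granule and promyelocyte genes had the most negative medians. All 8 fell in Active against Control, with a median of -1.49, and 6 fell in Resting, with a median of -0.70. Mpo encodes myeloperoxidase, which makes hypochlorous acid from hydrogen peroxide. Its signal was 11.85, 11.79 and 12.19 in Control, 10.98, 11.03 and 11.19 in Resting and 10.71, 9.37 and 10.18 in Active. The 3 groups did not overlap, and Active 2 was far below the other Active arrays. Mpo was 3.63-fold lower in Active than in Control (log2 difference -1.86, SE 0.27, adjusted p = 0.00053) and 1.84-fold lower in Resting (-0.88, SE 0.27, adjusted p = 0.043). The Resting call did not hold in 7 of the fits that left out 1 array, where the adjusted p reached 0.16 without Control 3.

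Elane encodes neutrophil elastase. It read 11.84, 11.66 and 12.13 in Control, 11.13, 11.22 and 11.18 in Resting and 10.67, 9.39 and 10.08 in Active. The Resting arrays lay within a narrow band (SD 0.04, n = 3) and the Active arrays were spread (SD 0.64, n = 3), with no overlap between any groups. Elane fell 3.56-fold in Active (log2 difference -1.83, SE 0.26, adjusted p = 0.00043), while its Resting difference from Control of -0.70 had an adjusted p of 0.089. Prtn3, which encodes the related serine protease proteinase-3, read 10.69, 10.46 and 10.83 in Control, 10.01, 10.11 and 10.31 in Resting and 9.83, 8.53 and 9.16 in Active. Again Active 2 was the lowest array, and the groups did not overlap. Prtn3 fell 2.80-fold in Active (-1.49, SE 0.26, adjusted p = 0.0018), and its Resting difference was -0.52 (SE 0.26, adjusted p = 0.22).

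Fcnb, which encodes the pattern-recognition lectin ficolin-B, had Control arrays of 10.69, 10.66 and 10.94, Resting arrays of 10.23, 9.82 and 9.86 and Active arrays of 9.30, 8.51 and 8.95. It was lower in every treated array than in every Control array. Fcnb fell 3.59-fold in Active (-1.84, SE 0.19, adjusted p = 6.1e-05) and 1.73-fold in Resting (-0.79, SE 0.19, adjusted p = 0.014). Ms4a3, a membrane protein gene that marks granulocyte and monocyte progenitors, read 9.43, 9.54 and 9.92 in Control, 9.03 ± 0.03 (SD, n = 3) in Resting and 8.38, 8.04 and 7.96 in Active. Its 3 groups were fully separate, and Resting varied least. Ms4a3 fell 2.83-fold in Active (-1.50, SE 0.15, adjusted p = 4.5e-05) and 1.51-fold in Resting (-0.60, SE 0.15, adjusted p = 0.017).

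Ctsg (cathepsin G) fell 2.46-fold in Active (-1.30, adjusted p = 0.00017) and 1.62-fold in Resting (-0.70, adjusted p = 0.01). The transcription factor genes of this stage also fell in both groups. Cebpe, whose product switches on the secondary granule genes, fell by 1.28 in Active (SE 0.20, adjusted p = 0.00085) and by 0.77 in Resting (SE 0.20, adjusted p = 0.02) on the log2 scale. Gfi1, a repressor needed for neutrophil differentiation, had the smallest differences of the stage, at -0.63 in Active (adjusted p = 0.0039) and -0.41 in Resting (adjusted p = 0.043).

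Against Resting, all 8 genes of the stage had lower means in Active, with a median log2 difference of -0.94, and every Active array lay below every Resting array for all 8. For Gfi1 this was nearly a tie, with Active 1 at 6.3687 and Resting 1 at 6.3693. Of the 8, 6 passed an unadjusted p under 0.05 with a 1.5-fold difference, and they were Elane, Fcnb, Mpo, Prtn3, Ms4a3 and Ctsg. The log2 differences were -1.13 for Elane (SE 0.26, adjusted p = 0.50), -1.05 for Fcnb (SE 0.19, adjusted p = 0.32), -0.98 for Mpo (SE 0.27, adjusted p = 0.55) and -0.90 for Ms4a3 (SE 0.15, adjusted p = 0.28). Cebpe and Gfi1 differed by -0.50 and -0.22. The exact permutation p was 0.10, the smallest possible, for each of the 8.

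Elane and Prtn3 lie next to each other on chromosome 10 with no protein-coding gene between them, and Mpo lies on chromosome 11. The 250 bases before their start sites are shown because they share a short run of letters, GAGGAA. This is the core of the motif of PU.1, a transcription factor of myeloid cells. Sequences are from RefSeq on GRCm38.p6, 5′ to 3′ on the gene's strand, with the motif letters in capitals.
Elane, chr10:79886062-79886311, + strand: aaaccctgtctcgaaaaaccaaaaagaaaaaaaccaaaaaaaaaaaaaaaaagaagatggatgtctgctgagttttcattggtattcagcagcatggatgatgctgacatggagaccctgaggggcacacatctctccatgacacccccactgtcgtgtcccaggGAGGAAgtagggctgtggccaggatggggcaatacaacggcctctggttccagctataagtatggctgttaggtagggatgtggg
Prtn3, chr10:79879417-79879666, + strand: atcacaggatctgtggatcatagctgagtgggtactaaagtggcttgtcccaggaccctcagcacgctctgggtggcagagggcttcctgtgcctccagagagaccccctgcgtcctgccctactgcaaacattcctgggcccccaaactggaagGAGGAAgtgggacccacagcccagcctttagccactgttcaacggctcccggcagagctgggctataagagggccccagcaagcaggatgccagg
Mpo, chr11:87793534-87793783, + strand: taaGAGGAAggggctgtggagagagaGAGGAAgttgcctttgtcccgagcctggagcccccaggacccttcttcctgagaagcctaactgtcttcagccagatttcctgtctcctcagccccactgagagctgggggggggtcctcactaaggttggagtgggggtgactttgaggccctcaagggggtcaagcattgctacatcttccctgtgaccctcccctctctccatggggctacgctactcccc
The letters begin 85 bases before the start of Elane, 95 before that of Prtn3, and 247 and 224 before that of Mpo. On either strand, GAGGAA was found in 21 of 35 windows of the neutrophil genes (60%), against 9289 of 32851 windows of all genes (28.3%). Of the 7 primary granule and promyelocyte genes with a window, 5 held these letters, and Fcnb and Gfi1 did not. The letters TTGCNNAA of the C/EBP family, to which Cebpe belongs, were found in 10 of 35 (28.6%), against 3547 of 32851 (10.8%). Windows run from 250 bases before to 50 after each start, 33 of the 36 genes had a window, Gfi1 and Ly6g having more than 1, and no window was matched for Cebpe, Trem3 and Ncf4. A match is a description of these letters, not a site or a cause.

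**Figure D3:**
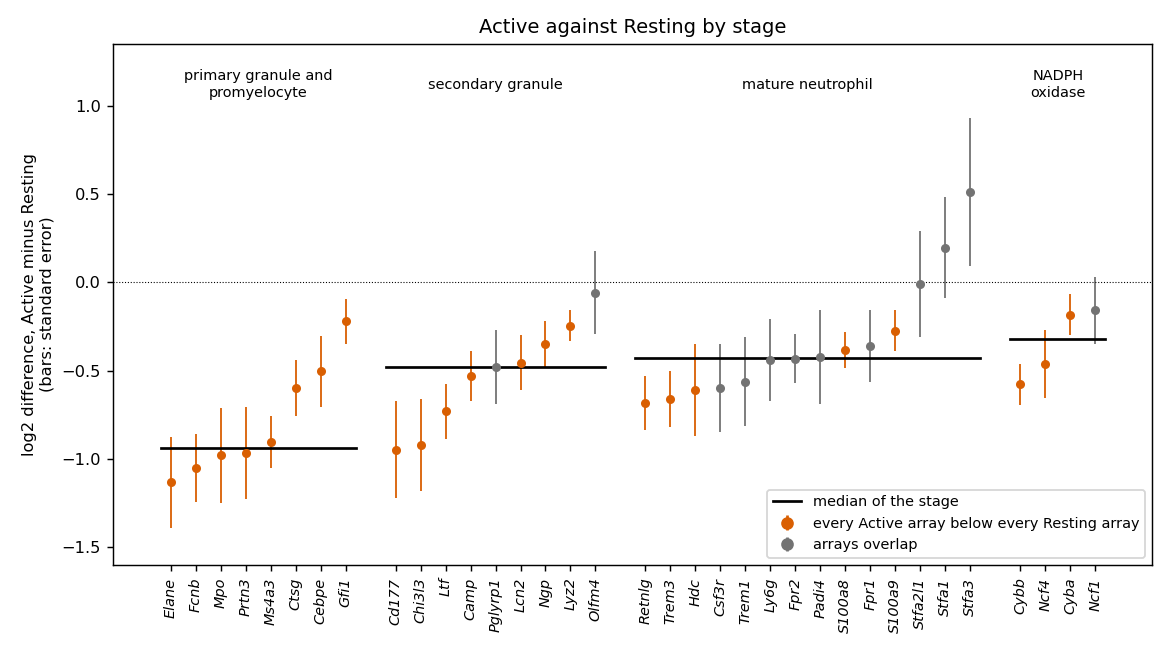
Log2 difference of Active minus Resting (vertical axis) for each of the 35 genes (horizontal axis, by stage), with the standard error as bars and the median of each stage as a black line; orange points are genes whose Active arrays all lie below the Resting arrays. The medians were -0.94 for the primary granule genes, -0.48 for the secondary granule genes and -0.43 for the mature neutrophil genes. That of the NADPH oxidase genes, which are not a step of maturation, was -0.32. No gene passed an adjusted p of 0.05.

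All 9 secondary granule genes fell in Active against Control, with a median of -1.16, and 3 (Olfm4, Pglyrp1 and Camp) fell in Resting, where the median was -0.49. Ltf encodes lactoferrin, which binds iron. It read 11.93, 11.84 and 12.07 in Control, 11.72, 11.40 and 11.44 in Resting and 11.05, 10.46 and 10.87 in Active. Resting 1 came close to Control, and no groups overlapped. Ltf fell 2.23-fold in Active (-1.16, SE 0.16, adjusted p = 0.00035), and its Resting difference was -0.43 (SE 0.16, adjusted p = 0.089).

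Camp, which encodes the precursor of the antimicrobial cathelicidin peptide, had the tightest Control arrays of all 35 genes, at 12.57, 12.55 and 12.57 (SD 0.01, n = 3). It read 12.08 ± 0.16 (SD, n = 3) in Resting and 11.83, 11.30 and 11.51 in Active. Both treated groups were below Control in every array. Camp fell 2.03-fold in Active (-1.02, SE 0.14, adjusted p = 0.00037) and 1.40-fold in Resting (-0.49, SE 0.14, adjusted p = 0.032). The Resting call was lost in 5 of the fits without 1 array, with an adjusted p of 0.11 without Resting 2.

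Chi3l3 (Ym1, a chitinase-like lectin of mice) and Cd177 (a surface glycoprotein that is also held in the granules) had the largest differences of the stage in Active. Chi3l3 read 9.40, 9.93 and 9.74 in Control, 9.35, 8.85 and 8.81 in Resting and 8.44, 7.44 and 8.36 in Active. Resting 1 was just under the lowest Control array, and Active 2 was the lowest of the 9. Chi3l3 fell 3.05-fold in Active (-1.61, SE 0.26, adjusted p = 0.0011), with a Resting difference of -0.69 (SE 0.26, adjusted p = 0.096). Cd177 fell 2.97-fold in Active (-1.57, SE 0.27, adjusted p = 0.0017), with a Resting difference of -0.62 (SE 0.27, adjusted p = 0.15).

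Olfm4, which encodes olfactomedin-4, a protein held in the granules of only some neutrophils, departed from the rest. It read 8.97, 8.31 and 8.82 in Control, 8.06, 7.13 and 7.33 in Resting and 7.56, 7.46 and 7.33 in Active. The treated groups overlapped, and all 6 treated arrays were below Control. Olfm4 fell 2.38-fold in Active (-1.25, SE 0.23, adjusted p = 0.0026) and 2.28-fold in Resting (-1.19, SE 0.23, adjusted p = 0.0045). Its Active minus Resting difference was -0.06 (SE 0.23, adjusted p = 0.99), and it turned to 0.22 without Resting 1.

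Pglyrp1, a peptidoglycan recognition protein gene, fell by 1.20 in Active (adjusted p = 0.0017) and by 0.72 in Resting (adjusted p = 0.035). Lcn2 (lipocalin-2, which binds bacterial siderophores) fell by 0.90 in Active (adjusted p = 0.0018), and its Resting difference was -0.45 (adjusted p = 0.076). Ngp (neutrophilic granule protein) fell by 0.54 in Active (adjusted p = 0.011), and its Resting difference was -0.19 (adjusted p = 0.38). These 3 genes had a smaller difference from Control in Resting than in Active.

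Lyz2, the lysozyme gene that macrophages also express, had the smallest difference of the stage. Its arrays read 9.85, 9.86 and 9.83 in Control, 9.82, 9.85 and 9.80 in Resting and 9.56, 9.61 and 9.57 in Active. Control and Resting overlapped, and the Active arrays were all lower. Lyz2 fell 1.20-fold in Active (-0.27, SE 0.09, adjusted p = 0.047), a call that was lost whichever array was left out, with adjusted p-values of 0.063 to 0.10. The Resting difference was -0.02 (SE 0.09, adjusted p = 0.91).

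Between Active and Resting, the 9 secondary granule genes had a median of -0.48, and all 9 means were lower in Active. Cd177, Chi3l3 and Ltf passed an unadjusted p under 0.05 with a 1.5-fold difference, at -0.95 (SE 0.27, adjusted p = 0.58), -0.92 (SE 0.26, adjusted p = 0.57) and -0.73 (SE 0.16, adjusted p = 0.45). Every Active array lay below every Resting array for 7 of the 9, the exceptions being Pglyrp1 and Olfm4.

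Of the 14 mature neutrophil genes with a row, 11 fell in Active against Control and 4 in Resting, with medians of -0.98 and -0.51. S100a8 and S100a9 encode the subunits of calprotectin, which binds calcium and zinc, and lie next to each other on chromosome 3. S100a8 read 12.68, 12.59 and 12.75 in Control, 12.63, 12.46 and 12.55 in Resting and 12.06, 12.28 and 12.15 in Active. Resting overlapped Control, and Active lay below both. S100a8 fell 1.43-fold in Active (-0.51, SE 0.10, adjusted p = 0.0041), with a Resting difference of -0.13 (SE 0.10, adjusted p = 0.46). S100a9 fell 1.34-fold in Active (-0.42, SE 0.12, adjusted p = 0.021), with a Resting difference of -0.15 (SE 0.12, adjusted p = 0.45). The S100a9 call was lost without Control 3 (adjusted p = 0.082) and without Active 2 (adjusted p = 0.071). Both genes are also expressed by monocytes.

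Retnlg encodes a resistin-like protein of neutrophils. Its signal was 10.07 ± 0.13 (SD, n = 3) in Control, 9.78, 9.23 and 9.24 in Resting and 8.82, 8.80 and 8.58 in Active, with no overlap between the groups. Retnlg fell 2.53-fold in Active (-1.34, SE 0.16, adjusted p = 0.00013) and 1.58-fold in Resting (-0.66, SE 0.16, adjusted p = 0.013). Ly6g, the surface marker by which mouse neutrophils are usually identified, read 8.14, 8.16 and 8.26 in Control, 8.02, 7.41 and 7.46 in Resting and 7.72, 6.73 and 7.12 in Active. Active and Resting overlapped, and both lay below Control. Ly6g fell 1.99-fold in Active (SE 0.23 on the log2 scale, adjusted p = 0.0096), with a Resting difference of -0.56 (SE 0.23, adjusted p = 0.13).

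The receptor genes fell in Active without exception. Fpr1 and Fpr2, neighbours on chromosome 17, encode receptors for the formyl peptides that bacteria and damaged mitochondria release. Fpr1 read 9.05, 9.35 and 9.30 in Control, 8.61, 8.05 and 7.83 in Resting and 7.46, 8.01 and 7.94 in Active. The treated groups overlapped, and Control lay above both. Fpr1 fell 2.69-fold in Active (-1.43, SE 0.21, adjusted p = 0.00052) and 2.10-fold in Resting (-1.07, SE 0.21, adjusted p = 0.0042). Fpr2 fell by 0.96 in Active (adjusted p = 0.00054) and by 0.53 in Resting (adjusted p = 0.022).

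Trem1 and Trem3, also neighbours on chromosome 17, encode activating receptors of myeloid cells. Trem3 read 9.83, 10.02 and 9.86 in Control, 9.52, 8.96 and 9.14 in Resting and 8.77, 8.33 and 8.54 in Active, and no groups overlapped. It fell 2.56-fold in Active (-1.36, SE 0.16, adjusted p = 0.00013) and 1.62-fold in Resting (-0.70, SE 0.16, adjusted p = 0.01). Trem1 fell 1.74-fold in Active (-0.80, SE 0.25, adjusted p = 0.04), with a Resting difference of -0.24 (adjusted p = 0.59), and the Active call was lost in 5 of the fits without 1 array (adjusted p up to 0.12, without Control 3). Csf3r, the receptor of G-CSF, which drives neutrophil production, fell 2.49-fold in Active (-1.32, SE 0.25, adjusted p = 0.0029), with a Resting difference of -0.72 (SE 0.25, adjusted p = 0.073).

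Padi4, whose enzyme citrullinates histones when neutrophils release their chromatin as traps, read 8.75, 8.40 and 9.23 in Control, 8.30, 7.78 and 7.80 in Resting and 8.04, 7.04 and 7.52 in Active. The treated groups overlapped below Control. Padi4 fell 2.39-fold in Active (-1.26, SE 0.27, adjusted p = 0.0057), and its Resting difference was -0.84 (SE 0.27, adjusted p = 0.052). Hdc, which encodes the histamine-forming enzyme, fell 2.14-fold in Active (-1.10, SE 0.26, adjusted p = 0.01), with a Resting difference of -0.49 (adjusted p = 0.24). Hdc is also a gene of mast cells and basophils. Of 10 listed genes of these cells, 5 were lower in Active than in Control, 1 was higher and 4 did not pass. The basophil proteases Mcpt8 and Prss34 had Active differences of -2.13 (adjusted p = 0.0011) and -2.31 (adjusted p = 0.0006). The only gene called higher was the mast cell tryptase Tpsb2, at 1.33 (adjusted p = 0.00034), while Kit was at -1.41 (adjusted p = 5.3e-05). The part of these cells in the Hdc result was not tested.

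The stefin A genes, which encode inhibitors of cysteine proteases and form a cluster on chromosome 16, included the only members with a higher mean in Active and in Resting than in Control, Stfa1 and Stfa3, and neither passed the test. Stfa1 read 7.36, 7.36 and 7.61 in Control, 8.60, 7.52 and 8.21 in Resting and 7.71, 8.54 and 8.65 in Active. Every Active array was above every Control array, and Resting overlapped both. The Active difference from Control was 0.86 (SE 0.28), with an adjusted p of 0.0504, and the Resting difference was 0.66 (SE 0.28, adjusted p = 0.14). Across the alternative settings, the adjusted p of the Active difference of Stfa1 ran from 0.0105 without Active 1 to 0.183 with the methods' t-test. The 250 bases before Stfa1 are shown as those of the gene that ran against the others. They hold both motifs, the C/EBP letters 109 bases and the PU.1 letters, on the opposite strand as TTCCTC, 178 bases before the start (RefSeq, GRCm38.p6, motif letters in capitals).
Stfa1, chr16:36276898-36277147, + strand: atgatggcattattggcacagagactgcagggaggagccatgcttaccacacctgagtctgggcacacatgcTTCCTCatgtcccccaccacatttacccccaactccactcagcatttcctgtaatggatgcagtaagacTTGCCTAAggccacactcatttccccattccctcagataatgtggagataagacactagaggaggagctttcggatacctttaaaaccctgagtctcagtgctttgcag

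Stfa3 read 5.51, 5.01 and 6.27 in Control, 6.43, 5.02 and 5.73 in Resting and 5.61, 6.18 and 6.93 in Active. The groups overlapped and had the widest spread of all 35 genes in Control (SD 0.63, n = 3) and in Resting (SD 0.70, n = 3). The differences from Control were 0.64 in Active (SE 0.42, adjusted p = 0.34) and 0.13 in Resting (adjusted p = 0.89), and the latter turned to -0.17 without Control 2. Stfa2l1 overlapped between all groups, with differences of -0.32 in Active (adjusted p = 0.52) and -0.31 in Resting (adjusted p = 0.56). Stfa2 had no row in the table with gene symbols. In the table of probe sets, Stfa2 had means of 3.59 ± 0.15 in Control, 3.72 ± 0.48 in Active and 3.56 ± 0.37 in Resting (SD, n = 3), with an Active difference of 0.14 (adjusted p = 0.81 from limma over all probe sets). The stefin A genes are close copies of each other, so their signals may share probes and are uncertain as single genes.

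Between Active and Resting, the mature genes had a median of -0.43, and 12 of 14 means were lower in Active. Retnlg, Trem3, Hdc and Csf3r passed an unadjusted p under 0.05 with a 1.5-fold difference, at -0.68 (SE 0.16, adjusted p = 0.50), -0.66 (SE 0.16, adjusted p = 0.53), -0.61 (SE 0.26, adjusted p = 0.81) and -0.60 (SE 0.25, adjusted p = 0.81). For Csf3r, Active 3 at 9.44 lay above Resting 3 at 9.39, and the groups of the first 3 genes did not overlap. The stefin genes had differences of 0.51 (Stfa3, SE 0.42), 0.20 (Stfa1, SE 0.28) and -0.01 (Stfa2l1, SE 0.30).

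Of the 4 NADPH oxidase genes, 3 fell in Active and 1 in Resting against Control, with medians of -0.68 and -0.37. The oxidase makes superoxide in the phagosome, and macrophages share it. Cybb, the catalytic membrane subunit, read 10.87, 10.86 and 10.99 in Control, 10.51, 10.17 and 10.33 in Resting and 9.82, 9.64 and 9.81 in Active. The 3 groups were fully separate with little spread (SD 0.07, 0.17 and 0.10, n = 3 each). Cybb fell 2.22-fold in Active (-1.15, SE 0.11, adjusted p = 4.5e-05) and 1.48-fold in Resting (-0.57, SE 0.11, adjusted p = 0.0051), and Active minus Resting was -0.58 (SE 0.11, adjusted p = 0.33).

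Cyba, the partner subunit of Cybb in the membrane, fell by 0.46 in Active (SE 0.11, adjusted p = 0.013), a call lost without Control 3 (adjusted p = 0.055), and its Resting difference was -0.28 (adjusted p = 0.12). Ncf4, a regulatory subunit in the cytosol, fell by 0.86 in Active (SE 0.19, adjusted p = 0.0079), with a Resting difference of -0.40 (adjusted p = 0.20). Ncf1, the organizer subunit in the cytosol, did not pass in either group, at -0.49 (SE 0.19, adjusted p = 0.088) and -0.34 (SE 0.19, adjusted p = 0.27). Active minus Resting had a median of -0.32 over the 4 genes, and 0 of them passed an unadjusted p under 0.05 with a 1.5-fold difference.

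**Figure D4:**
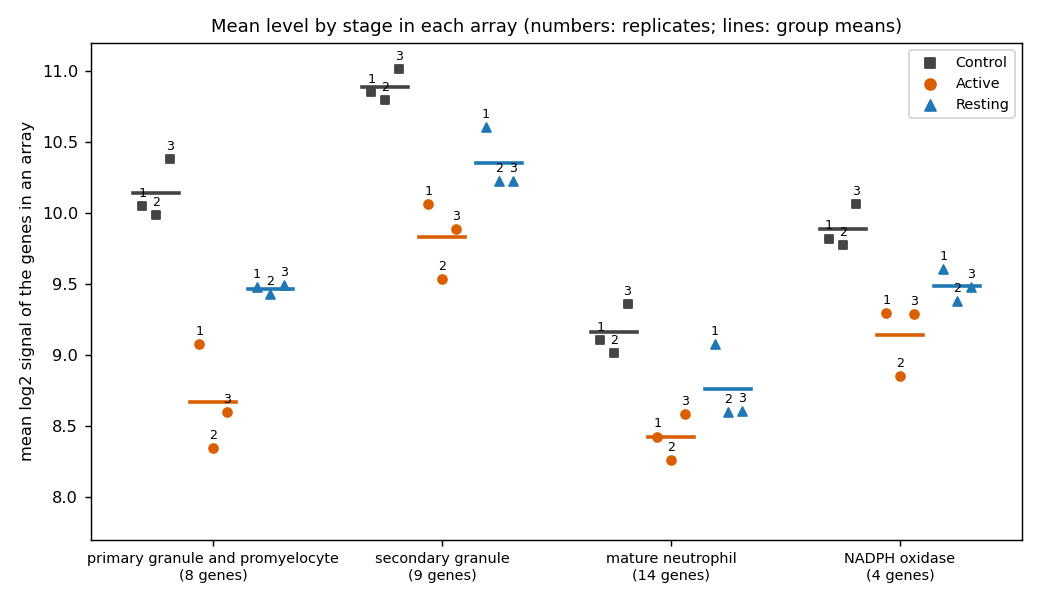
Mean log2 signal of the genes of each stage (vertical axis) in each array, by stage (horizontal axis), with the replicate number beside each point and the group mean as a line, for Control (squares), Active (circles) and Resting (triangles). For the primary granule stage Resting lay between 9.43 and 9.49 and Active between 8.34 and 9.08, and Active 2 was the lowest array in every stage.

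The spread among the Active arrays was widest for the primary granule genes. The mean of the 8 genes was 9.08, 8.34 and 8.60 in Active 1, 2 and 3 (SD 0.37), 9.48, 9.43 and 9.49 in Resting (SD 0.03) and 10.05, 9.99 and 10.38 in Control (SD 0.21). Each Active array was below each Resting array on this mean. Over the mature genes, the Active arrays had means of 8.43, 8.26 and 8.59 and the Resting arrays 9.08, 8.60 and 8.61, so that Active 3 lay just under Resting 2. The median SD of the 35 genes was 0.19 in Control, 0.31 in Active and 0.18 in Resting, beside 0.14, 0.16 and 0.13 over all rows. Mpo had the widest spread in Active, at an SD of 0.68. Active 2 was the lowest Active array for 22 of the 35 genes, beside 35.4% of all rows.

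The count of genes that passed between Active and Resting changed with the Active arrays used. Without Active 1, 4 genes passed an adjusted p of 0.05 lower in Active, as did 0.135% of all rows in that fit: Elane (-1.44, adjusted p = 0.040), Prtn3 (-1.30, adjusted p = 0.049), Ms4a3 (-1.03, adjusted p = 0.040) and Fcnb (-1.24, adjusted p = 0.040). All 4 belong to the primary granule stage. Genes past an unadjusted p under 0.05 with a 1.5-fold difference and lower in Active numbered 21 without Active 1 (1.24% of all rows), 7 without Active 2 (0.435%) and 13 with all arrays (0.607%).

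In the Resting comparison with Control, the count of 14 was 9 without Control 1 (8.6% of all rows lower in that fit), 5 without Control 3 (7.44%), 6 without Resting 2 (7.15%) and 5 without Resting 3 (7.21%). The 5 genes whose call held whichever array was left out were Ctsg, Olfm4, Fpr1, Trem3 and Cybb. In the Active comparison with Control, 27 of the 31 calls held whichever array was left out, and the 4 that did not were Lyz2, S100a9, Trem1 and Cyba. With the methods' t-test, adjusted over all rows, 13 genes were lower in Active and 1 in Resting, beside 5.05% and 4.46% of all rows.

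Beyond the 36 genes, 40 further genes of the neutrophil pathway were listed in 4 groups, and 38 had a row. In Active against Control 20 were lower and 0 higher, beside 12.1% and 11.8% of all rows. In Resting 14 were lower and 3 higher, beside 10% and 9.08%. Of 6 transcription factors of granulocytes, Myb, which keeps progenitors cycling, fell in both groups (-2.70 in Active, adjusted p = 0.00013, and -1.88 in Resting, adjusted p = 0.0018). The means of 5 of the 6 were above Control in both groups, with list medians of 0.16 in Active and 0.25 in Resting. Among these higher means, only that of Stat3 in Resting passed. Stat3, which acts below Csf3r, was higher in Resting (0.46, adjusted p = 0.015), and its Active difference was 0.32 (adjusted p = 0.063). Among 10 ligands and receptors of recruitment, 4 fell in each group. Cxcr4, the receptor that retains neutrophils in marrow, fell by 1.16 in Active (adjusted p = 0.00012) and by 0.85 in Resting (adjusted p = 0.0011). The neutrophil chemokines Cxcl2 (0.51, adjusted p = 0.045) and Cxcl5 (1.13, adjusted p = 0.03) were higher in Resting. Their Active differences were 0.21 (adjusted p = 0.40) and 0.69 (adjusted p = 0.16). The Resting arrays of Cxcl5 were spread, at 6.12, 7.63 and 6.89. Between Active and Resting, Stat3, Cxcl2 and Cxcl5 did not pass (adjusted p = 0.93, 0.88 and 0.93).

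Of the 6 adhesion genes, 5 fell in Active and 4 in Resting. Of 16 other neutrophil proteins, 10 fell in Active and 5 in Resting. Between Active and Resting 0 of the 38 passed, with a median of -0.32. Among the smallest p-values were those of the integrin Itgal (-0.65, SE 0.20, adjusted p = 0.62) and Anxa1, which encodes the anti-inflammatory protein annexin A1 (-0.41, SE 0.13, adjusted p = 0.66). The mean in Active was lower than in Resting for 37 of the 38 genes.

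**Figure D5:**
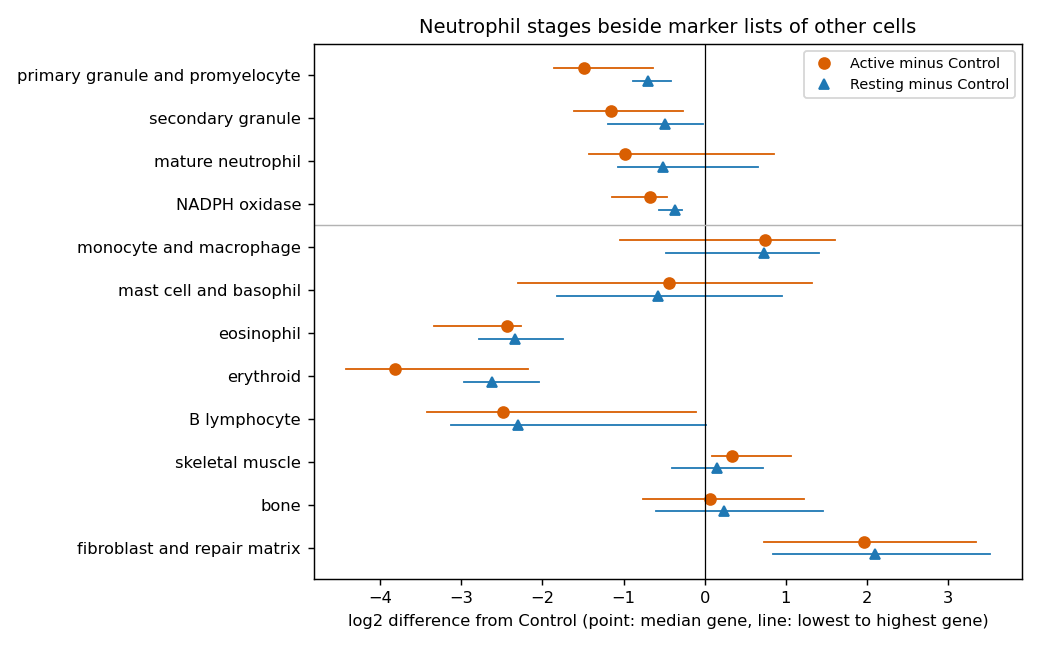
Log2 difference from Control (horizontal axis) of the 4 neutrophil stages and of 8 lists of markers of other cells and tissues (vertical axis), for Active (circles) and Resting (triangles); points are the median gene and lines run from the lowest to the highest gene. The primary granule stage had medians of -1.49 and -0.70, the erythroid list -3.82 and -2.62, and the monocyte and macrophage list 0.74 and 0.73.

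Markers of erythroid cells, B lymphocytes and eosinophils moved along with the neutrophil genes, and those of mast cells and basophils were mixed. All 9 erythroid genes with a row fell in both groups (medians -3.82 in Active and -2.62 in Resting), and the sum of their linear signals was 12506 to 17294 in Control, 721 to 2040 in Active and 1905 to 2697 in Resting. Of the 10 B lymphocyte genes 9 fell in each group (medians -2.49 and -2.30), with Vpreb1, the dimmest, at -0.11 and 0.02 and a summed signal of 3593 to 4095 in Control, 1008 to 1202 in Active and 1092 to 1253 in Resting. All 6 eosinophil genes with a row fell in both groups (medians -2.43 and -2.34), from a sum of 5658 to 6737 in Control to 768 to 1166 in Active and 746 to 1832 in Resting. Of the 10 mast cell and basophil genes 5 fell and 1 rose in Active and 4 fell and 1 rose in Resting, and the sums were 2029 to 3971, 1050 to 1199 and 1094 to 1236, with Fcer1a the dimmest at a mean of 3.71. For comparison, the linear signals of the 8 primary granule genes summed to 12337 to 16162 in Control, 3098 to 6133 in Active and 8125 to 8583 in Resting.

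Most markers of monocytes and macrophages and all 8 of repair matrix moved the other way. Of 12 monocyte and macrophage genes, 8 were higher and 1, Ly6c2 of inflammatory monocytes, was lower in each treated group. The list medians were 0.74 in Active and 0.73 in Resting. The summed signals were 8420 to 10155 in Control, 8287 to 10158 in Active and 9691 to 11300 in Resting. Ly6c2 was the brightest of the 12 and weighs most in these sums, with log2 means of 12.25 in Control, 11.21 in Active and 11.78 in Resting. All 8 fibroblast and repair matrix genes were higher in both groups, with sums of 7570 to 10235 in Control, 20142 to 23703 in Active and 19818 to 25763 in Resting. Of 10 muscle genes, 3 were higher in Active and 0 in Resting, with sums of 32288 to 37802 in Control, 41238 to 48248 in Active and 35372 to 44936 in Resting. Of 9 bone genes, 1 was higher and 1 lower in Active, and 3 were higher in Resting. The part of these other cells and tissues in the differences of the neutrophil genes was not tested.

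Between Active and Resting, the erythroid list had a median of -0.94, as had the primary granule stage. At an unadjusted p under 0.05 with a 1.5-fold difference, 8 of the 9 erythroid genes were lower in Active, and 6 of the 8 primary granule genes. The erythroid sums of Active and Resting overlapped, and those of the primary granule stage did not. On the mean log2 signal of each array, neither list overlapped. The erythroid means were 7.415, 6.22 and 6.17 in Active and 7.64, 7.84 and 7.424 in Resting. The muscle list had a median of 0.23, the B lymphocyte list of -0.17 and the monocyte and macrophage list of -0.06, and 0 genes of any marker list passed an adjusted p of 0.05. The part of erythroid cells and muscle in the Active minus Resting differences of the neutrophil genes was not tested.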

How the data were processed

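RNA from 9 tibia samples was measured on GeneChip Mouse Gene ST array 2.0 arrays, from 100 ng of total RNA each. The deposited values are the authors' normalized log2 signals. The submitters' notes name GeneSpring GX 10, and the paper's methods a filter that kept only entities called present. The sources used here do not give the normalization algorithm or the log base. The 24367 rows named by gene were all found among the 41345 probe sets of the other deposited table. Replicate numbers differ between these tables in Active and Resting, and those of the gene-named table are used. The paper's methods give another age and the strain C57BL/6j for the first experiment, and the labels' age is used here.

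Groups were compared with lmFit and eBayes of limma 3.58.1 in R 4.3.3 (6 residual degrees of freedom), with Benjamini-Hochberg adjustment over all rows. The exact permutation tests were two-sided and run in Python 3.11.15. The fit was tested on simulated data. All 36 listed genes are named, and of the other pathway genes the 3 with the smallest p in each comparison, of which 1 gene is not reported here. Genes named beyond these (marker genes, Stat3, Cxcl2 and Cxcl5) were chosen after their values were seen. The members and lists were chosen with earlier results of these data known. Same-numbered arrays did not deviate together (correlations -0.25 to 0.17), so no block was used. The alternatives were the table of probe sets, the methods' t-test, a fit of the 6 arrays compared, a filter on the dimmest 40% of rows, median centring, quantile normalization, array weights, an intensity trend, a replicate block, the mean of a symbol's rows, a 2-fold threshold and leaving out each array. A block with the numbers of the probe set table was added after the data were seen. Precision is limited by there being 3 arrays a group. Protein sequences were not used here.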

Additional observations from a re-analysis of the deposited data

How the results depend on the processing

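Of 2094 values of single genes under the alternatives, 1931 kept their direction and their side of the adjusted p of 0.05, 101 were no longer past it, 53 came past it and 9 turned direction. The median difference of the 35 genes stayed negative in every setting, at -1.26 to -0.99 (Active minus Control), -0.63 to -0.47 (Resting minus Control) and -0.67 to -0.35 (Active minus Resting) when each array was left out. The methods' t-test called 13 genes lower in Active (5.05% of all rows) and 1 in Resting (4.46%) against Control. At the methods' threshold it called 7 lower between Active and Resting (0.283%). With limma, a 2-fold threshold left 20 genes in Active (3.95%) and 2 in Resting (2.92%). Resting against Control had 9 genes lower with the table of probe sets (6.4% of its rows). Fpr1 was not matched to a probe set there, while Stfa2 was. The count was 22 with only the 6 arrays compared (10.2% of all rows) and 22 with array weights (12.1%). Stfa1 was called higher in Active, as the 1 such gene, with only the 6 arrays compared, without the dimmest 40% of rows, with quantile normalization, array weights, the mean of a symbol's rows and the added block of probe set table numbers.

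Leaving out each array gave 27 to 30 genes lower and 0 to 1 higher in Active against Control. It gave 5 to 20 lower and 0 to 1 higher in Resting against Control, and 0 to 4 lower in Active against Resting (7 to 21 at the methods' threshold). The shares of all rows lower in these fits were 9.6% to 11.9%, 7.15% to 10.8% and 0% to 0.135% (0.435% to 1.65%). Differences that turned were Stfa3 in Resting minus Control (-0.17 without Control 2, -0.23 without Resting 1, up to 0.48 without Resting 2) and, in Active minus Resting, Stfa2l1 (0.17 with array weights, 0.24 without Active 1, 0.35 without Resting 1, -0.26 without Resting 3), Ncf1 (0.030 without Active 2, -0.29 without Active 3), Olfm4 (0.0032 without Active 3, 0.22 without Resting 1, -0.25 without Resting 2) and Stfa1 (-0.10 without Resting 2, 0.49 without Active 1). None of these differences passed with all arrays, and the cause was not tested. With the replicate number as a block the counts were 31, 14 and 0 genes lower, beside 11.4%, 9.55% and 0% of all rows. Same-numbered arrays share only a number. The block with probe set table numbers gave 30 and 16 against Control, beside 12.2% and 9.95% of all rows.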

Other observations

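Within each group, the neutrophil genes tended to have the same extreme array. Control 3 was the highest Control array for 29 of the 35 genes, beside 32.7% of all rows, and Control 2 the lowest for 26, beside 35.8%. Resting 1 was the highest Resting array for 26, beside 38.8%, and Active 1 the highest Active array for 24, beside 31.2%. Of all 9 arrays, Control 3 was the highest for 26 genes and Active 2 the lowest for 22. The shares of all rows for these counts were not computed. The counts also follow in part from the order of the group means, which was Control, Resting, Active for 33 genes.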
